A study of Xenopus laevis with 16 samples.

Results

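The early transcriptional response to Neurog2 was measured in animal caps of Xenopus laevis after 6 h of dexamethasone. Of the 16 libraries of the series, the 4 compared here are 2 from caps with GR-neurog2 mRNA and 2 from control caps, chosen by their labels. Animal caps are pieces of prospective ectoderm cut from blastula embryos. The study set Neurog2 beside Ptf1a and beside ptf1aW224A/W242A, a changed Ptf1a that is called the mutant below, at 6 h and 25 h. Injection was at the 2-cell stage, animally into both cells, with 20 pg of mRNA, and every encoded protein was fused to a hormone-binding GR domain. All 4 libraries carry dexamethasone and 6 hours as labels. No injected mRNA is named for the control caps, and the series' text leaves unclear whether these were injected. The labels name no strain, and they do not say how many explants were pooled in a library.

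Neurog2 (neurogenin 2) is a proneural factor of the basic helix-loop-helix (bHLH) class, which can turn ectoderm toward neurons. The GR domain keeps a fused factor inactive until hormone is added, so dexamethasone sets the time at which it starts to act. In the neural ectoderm, proneural factors switch on Delta ligands, which signal through Notch to neighbouring cells and hold those back through Hes factors, while the cells that escape go on to express neuronal transcription factors and then the genes of neurons. Uninjected caps left alone form epidermis.

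The 4 libraries held 55455110 and 31683494 counts with Neurog2, and 49151603 and 31436437 in the controls, in the order of replicates 1 and 2, which is kept below. Levels are CPM, read counts brought to a common library total and scaled by TMM, a normalization of library composition. A gene was called when its adjusted p was under 0.05 in edgeR's quasi-likelihood test with Benjamini-Hochberg adjustment over 30384 genes, fitted to all 16 libraries. A paired fit took only the 8 libraries of 6 h and included the replicate number. The libraries of one number deviated together at 6 h, and the paired fit had a smaller estimated spread, a biological coefficient of variation of 0.142 against 0.378. The term "paired fit" always names the second, of which 3 residual degrees of freedom remained. Caps are bulk samples, in which more cells expressing a gene and more RNA per cell cannot be told apart.

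The injected factor was read first. The gene neurog2.L lies on chromosome 1L, from 61907027 to 61909892 of build 9.1. Its level was 158 and 192 CPM with Neurog2 and 0.257 and 0.373 CPM in the controls. The Neurog2 libraries lay far above the controls, and reads of the injected mRNA and of the gene itself cannot be told apart in these counts. The other copy, neurog2.S, stood at 0.420 and 0.864 CPM with Neurog2 and at 0.771 and 1.59 CPM in the controls. The groups overlapped for this copy, and it was not called (log2 fold change -0.88 ± 1.23 SE, adjusted p = 1). The gene of the other factor of the study, ptf1a.L, was read at 0.510 and 0.0960 CPM with Neurog2 and at 0.161 and 0.187 CPM in the controls, which also overlapped.

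Across all genes the response at 6 h was mostly upward. With Neurog2, 75 genes were called higher, 0.247% of those tested, and 1 was called lower, which is 0.00329%. The paired fit called 315 genes higher, 1.15% of its 27317 genes, and 126 lower, 0.461%. With all libraries kept and the replicate number as a block within each time, 149 genes were higher, 0.49%, and 7 lower, 0.023%. At an unadjusted p under 0.05 in the fit of all libraries, 889 of the 30384 genes were higher and 305 lower. A 0.05 share of genes would pass that cut if none changed and the p-values were calibrated. Together the 889 and 305 lie below that share. This fit counts the shared deviation of same-numbered libraries as spread, so the comparison cannot show whether further genes changed. The median log2 fold change of all genes was 0.01. In all 75 genes both Neurog2 libraries lay above both controls, which also held for 13.4% of all tested genes. Of the 75 genes, 67 have a symbol, and these come from 58 different symbols, since both the L and the S copy were called for 9 genes. The L and S copies descend from a genome duplication, and reads may be shared between them.

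The size of the change differed between the directions. The 75 genes had log2 fold changes from 0.88 to 11.97 with a median of 2.82. The highest is that of hbg1.L. It was 1 of 4 genes among the 75 with 0 counts in both controls, whose fitted fold changes depend on a prior count. Within each replicate number, 843 genes were more than 2-fold higher with Neurog2 in both pairs, 2.77% of those tested, and 235 were more than 2-fold lower, 0.773%. Of the 315 genes higher in the paired fit, 202 passed that mark, as did 6 of the 126 lower ones. The plot of both pairs shows the called genes along the diagonal, with the lower ones close to the origin.

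**Figure D1:**
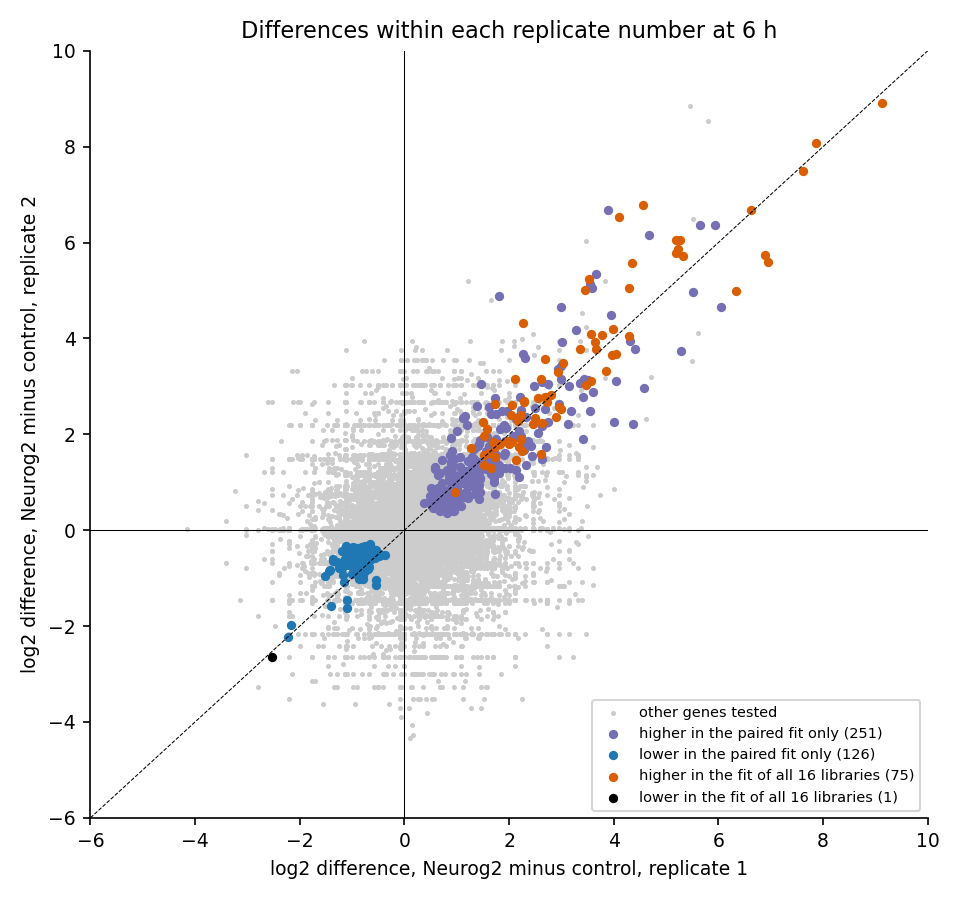
Each point is 1 gene, with the log2 difference of Neurog2 minus control in replicate 1 on the x axis and in replicate 2 on the y axis, from log2 CPM with a prior count of 2. The 75 genes higher in the fit of all 16 libraries (orange) lie in the upper right, the 126 genes lower in the paired fit (blue) lie near the origin in the lower left, and the dashed line marks equal differences.

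How far the calls rest on single libraries was measured by leaving out each of the 4 in turn. Between 16 and 50 genes were then called higher. The count was 16 without control replicate 1, 17 without control replicate 2, 40 without Neurog2 replicate 1 and 50 without Neurog2 replicate 2. Named genes that stayed called every time were neurog2.L, dll1.S, cbfa2t2.S, tsc22d3.L, tiparp.L, pcdh18.L, pcdh18.S, efs.L and nhsl2.L. The other 25 named genes that are called below lost the call without at least 1 library.

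Delta ligands were among the clearest changes. These are membrane proteins that activate Notch on the next cell. Of the 41 tested copies of Notch ligands, receptors and modifiers, 4 were called higher and none lower, with a list median log2 fold change of 0.29 beside 0.01 over all genes. In the paired fit 12 were higher and none lower. These are 9.76% of the list over all libraries, beside 0.247% of all genes, and 30% of its members in the paired fit, beside 1.15%. The 25 lists were chosen with earlier results of these data known, and L and S copies count as separate members. The shares given here and below are therefore descriptive and no test of a list. The called copies were dll1.L, dll1.S, dlc.S and numbl.L.

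The 2 copies of dll1, which encodes Delta-like 1, behaved alike. The copy dll1.S lies on chromosome 5S, from 41566190 to 41573528. It was read at 47.8 and 59.3 CPM with Neurog2 and at 4.11 and 1.54 CPM in the controls, with no overlap. Its log2 fold change was 4.23 ± 0.42 SE with an adjusted p of 0.000942, and in the paired fit the adjusted p was 0.0517. For dll1.L, on chromosome 5L from 50297161 to 50305087, the values were 52.2 and 63.7 CPM against 4.77 and 1.96 CPM. That is a log2 fold change of 4.10 ± 0.67 SE with an adjusted p of 0.0272, and the adjusted p was 0.0643 with the replicate number as a block within each time. Per kilobase of exon, the means with Neurog2 were 21.8 CPM for dll1.S and 20.0 CPM for dll1.L.

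A second Delta gene came from near 0. For dlc.S, which encodes a Delta ligand, 142 and 73 reads were counted with Neurog2 and 2 and 0 in the controls. The ratio of the pooled counts was 104, with an exact 95% interval of 28.5 to 867 that covers at most counting error. Most low counts are even, so reads seem counted in pairs. The interval treats each read as independent and is then too narrow. The copy dlc.L was read at 6.57 and 3.79 CPM against 2.51 and 0.606 CPM, and rose in the paired fit (log2 fold change 1.94 ± 0.29 SE, adjusted p = 0.00437). The adaptor gene numbl.L, a relative of the Notch inhibitor Numb, was read at 8.61 and 9.82 CPM against 1.96 and 1.07 CPM (log2 fold change 2.59 ± 0.41 SE, adjusted p = 0.0218).

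Receptors and modifiers of Notch moved by less. The receptor gene notch1.L was read at 44.3 and 42.5 CPM with Neurog2 and at 11.6 and 11.7 CPM in the controls, a clear gap in both pairs. It narrowly missed the threshold over all libraries (log2 fold change 1.90, adjusted p = 0.0702) and passed in the paired fit (adjusted p = 3.07e-05). The feedback gene nrarp.S, which encodes an ankyrin protein that damps Notch signalling, was read at 192 and 174 CPM against 96.0 and 80.6 CPM and rose in the paired fit (log2 fold change 1.04 ± 0.14 SE, adjusted p = 0.00118). Other copies higher in the paired fit by at most 1.06 on the log2 scale were notch1.S, jag1.L, both copies of lfng, a Fringe glycosyltransferase that modifies Notch, and both copies of neurl1b, a ubiquitin ligase of the Neuralized type.

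**Figure D2:**
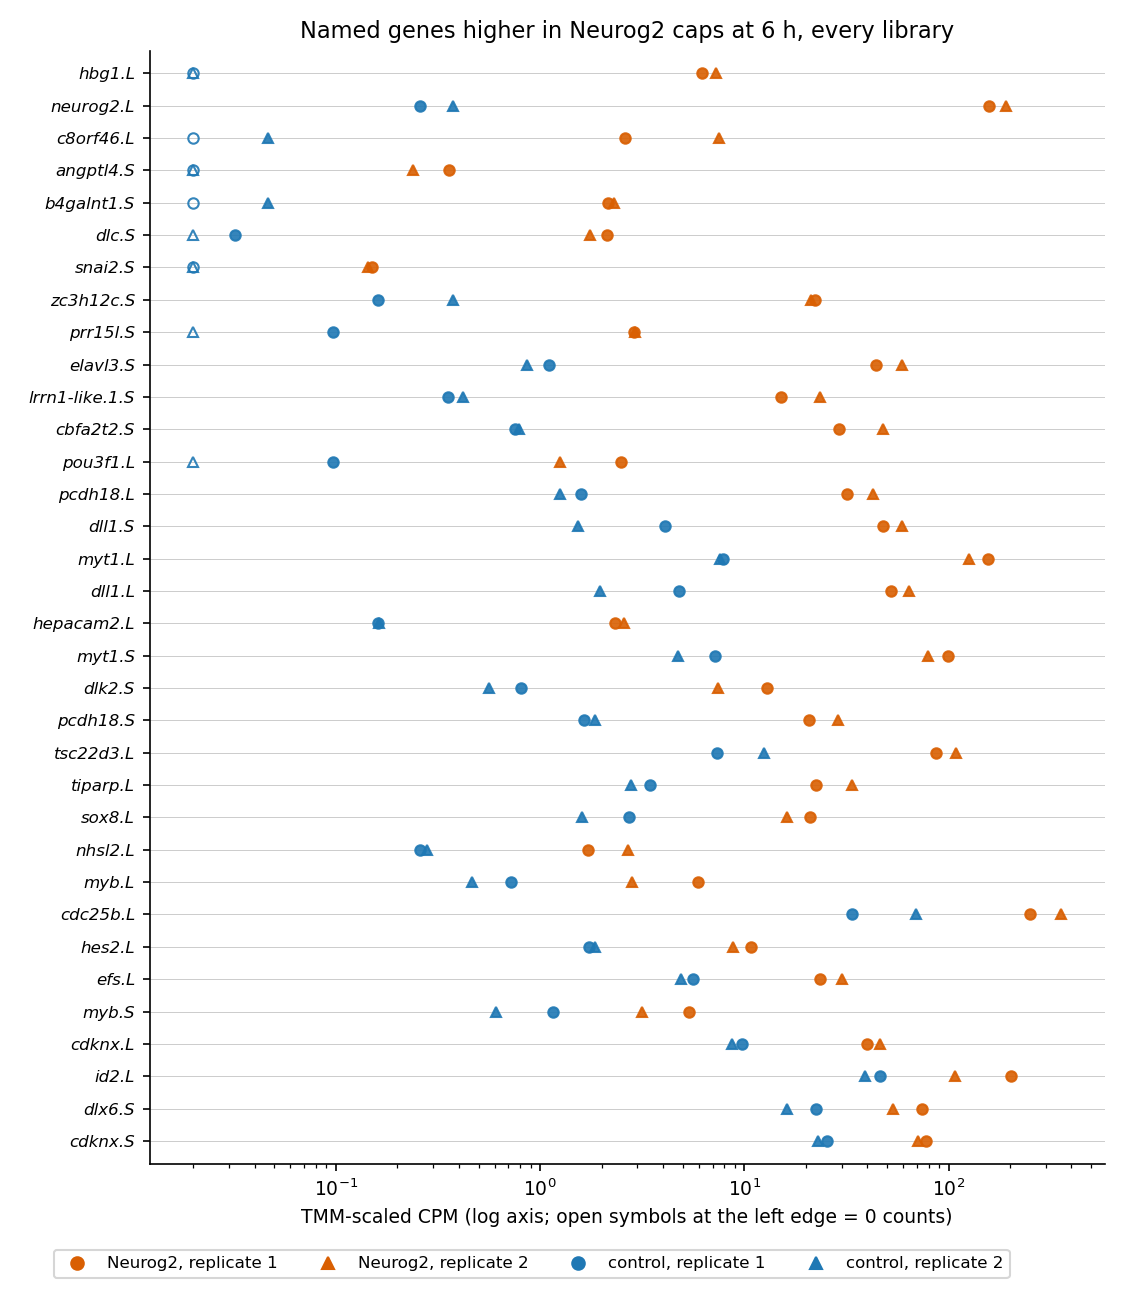
Every library's level of the 34 named genes called higher is plotted in TMM-scaled CPM on a log axis, with circles for replicate 1, triangles for replicate 2, orange for Neurog2 and blue for control, and open symbols at the left edge for 0 counts. In each row both orange symbols lie to the right of both blue ones, which holds for all 75 genes called higher.

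Hes, Hey and Id genes include the repressors through which Notch acts and the Id proteins, which bind bHLH factors and keep them from DNA. Of 31 tested copies, 2 were called higher and none lower, with a median log2 fold change of 0.41. Those 2 are 6.45% of the list beside 0.247% of all genes. With pairing 8 were higher, 25.8% beside 1.15%, and 1 lower, 3.23% beside 0.461%. The repressor gene hes2.L was read at 10.8 and 8.84 CPM with Neurog2 and at 1.74 and 1.87 CPM in the controls (log2 fold change 2.45 ± 0.39 SE, adjusted p = 0.0232). The gene id2.L was read at 201 and 107 CPM against 46.0 and 38.9 CPM (log2 fold change 1.86 ± 0.30 SE, adjusted p = 0.0231, and 0.0597 in the paired fit). Both replicates of each lay above both controls.

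The Hes copies that rose in the paired fit were low in the controls. The gene hes5.1.S, of the Hes5 class that responds to Notch, was read at 4.05 and 5.62 CPM against 0.482 and 0.606 CPM (log2 fold change 3.13 ± 0.20 SE, adjusted p = 6.66e-07). Further copies in this group were hes5.1.L, hes5.2.L, hes3.L and hes3.S. The copies of id3 were already abundant, with id3.L at 450 and 356 CPM against 244 and 133 CPM (log2 fold change 1.13 ± 0.14 SE, adjusted p = 0.00118). In the other direction stood hes7.2.L, at 0.15 and 0.24 CPM against 0.771 and 1.03 CPM (log2 fold change -2.23 ± 0.51 SE, adjusted p = 0.0425).

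Early neuronal transcription factors had the second highest median of the 25 lists. Of 60 tested copies, 4 were called higher and none lower, and the median log2 fold change was 0.64. Those 4 are 6.67% of the list beside 0.247% of all genes. Pairing gave 12 higher, 24% beside 1.15%, and none lower. The called copies were myt1.L, myt1.S, insm1.S and pou3f1.L.

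The gene myt1 encodes a zinc finger protein that promotes neuronal differentiation in Xenopus. The level of myt1.L was 155 and 126 CPM with Neurog2 and 7.86 and 7.60 CPM in the controls, with no overlap (log2 fold change 4.18 ± 0.56 SE, adjusted p = 0.00789). Its partner myt1.S was read at 99.5 and 79.4 CPM against 7.20 and 4.71 CPM (log2 fold change 3.91 ± 0.49 SE, adjusted p = 0.00585). The gene insm1.S, whose zinc finger product acts in newborn neurons and endocrine cells, was read at 18.2 and 30.6 CPM against 1.75 and 2.22 CPM (log2 fold change 3.62 ± 0.51 SE, adjusted p = 0.00958). The copy insm1.L, at 22.3 and 37.3 CPM against 1.93 and 4.20 CPM, rose in the paired fit alone (log2 fold change 3.30 ± 0.23 SE).

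The POU factor gene pou3f1.L had 166 and 52 counts with Neurog2 and 6 and 0 in the controls. Its adjusted p was 0.0135 over all libraries and 0.101 in the paired fit. Several factors known from later neurons rose in the paired fit from a handful of counts. The homeobox gene onecut1.2.L had 238 and 170 counts against 2 and 1. The pooled ratio was 132 with an exact 95% interval of 44.8 to 642, which treats each read as independent. The gene ebf2.S, which encodes a helix-loop-helix factor of differentiating neurons, was read at 3.93 and 4.15 CPM against 0.161 and 0.280 CPM. For hes6.2.S, of the Hes6 class that promotes neurogenesis, 98 and 79 counts stood against 2 and 0.

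Further proneural factors were low at this time. Of 21 tested copies, neurog2.L alone was called, and the median log2 fold change was 0.14. That share, 4.76% beside 0.247% of all genes, is the injected factor itself and shows nothing about the other members. In the paired fit neurod4.L and neurod1.L were also higher. These encode NeuroD factors, which act after the neurogenins. With neurog2.L they are 15.8% of the members in the paired fit, beside 1.15% of all genes, a share that also counts the injected factor. The counts of neurod4.L were 178 and 34 with Neurog2 and 2 and 0 in the controls, and neurod1.L was read at 0.660 and 1.68 CPM against 0.0964 and 0.187 CPM (log2 fold change 2.98 ± 0.55 SE). The zinc finger repressor gene zbtb18.S, which is no member of these lists, was called as well, at 11.2 and 14.7 CPM against 0.916 and 0.840 CPM (log2 fold change 3.88 ± 0.44 SE).

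The ETO corepressors, which proneural factors induce and which limit them in return, were tested as 6 copies. Of these 1 was called, 16.7% beside 0.247% of all genes. For cbfa2t2.S, on chromosome 9_10S from 31584486 to 31610815, the level was 29.2 and 47.5 CPM with Neurog2 and 0.755 and 0.793 CPM in the controls. The log2 fold change was 5.63 ± 0.52 SE with an adjusted p of 0.000942, and the adjusted p was 0.0779 in the paired fit, which called none of the 6. The list's median was 1.48, and summed over the 6 copies the level was 106 and 136 CPM against 17.5 and 31.6 CPM.

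**Figure D3:**
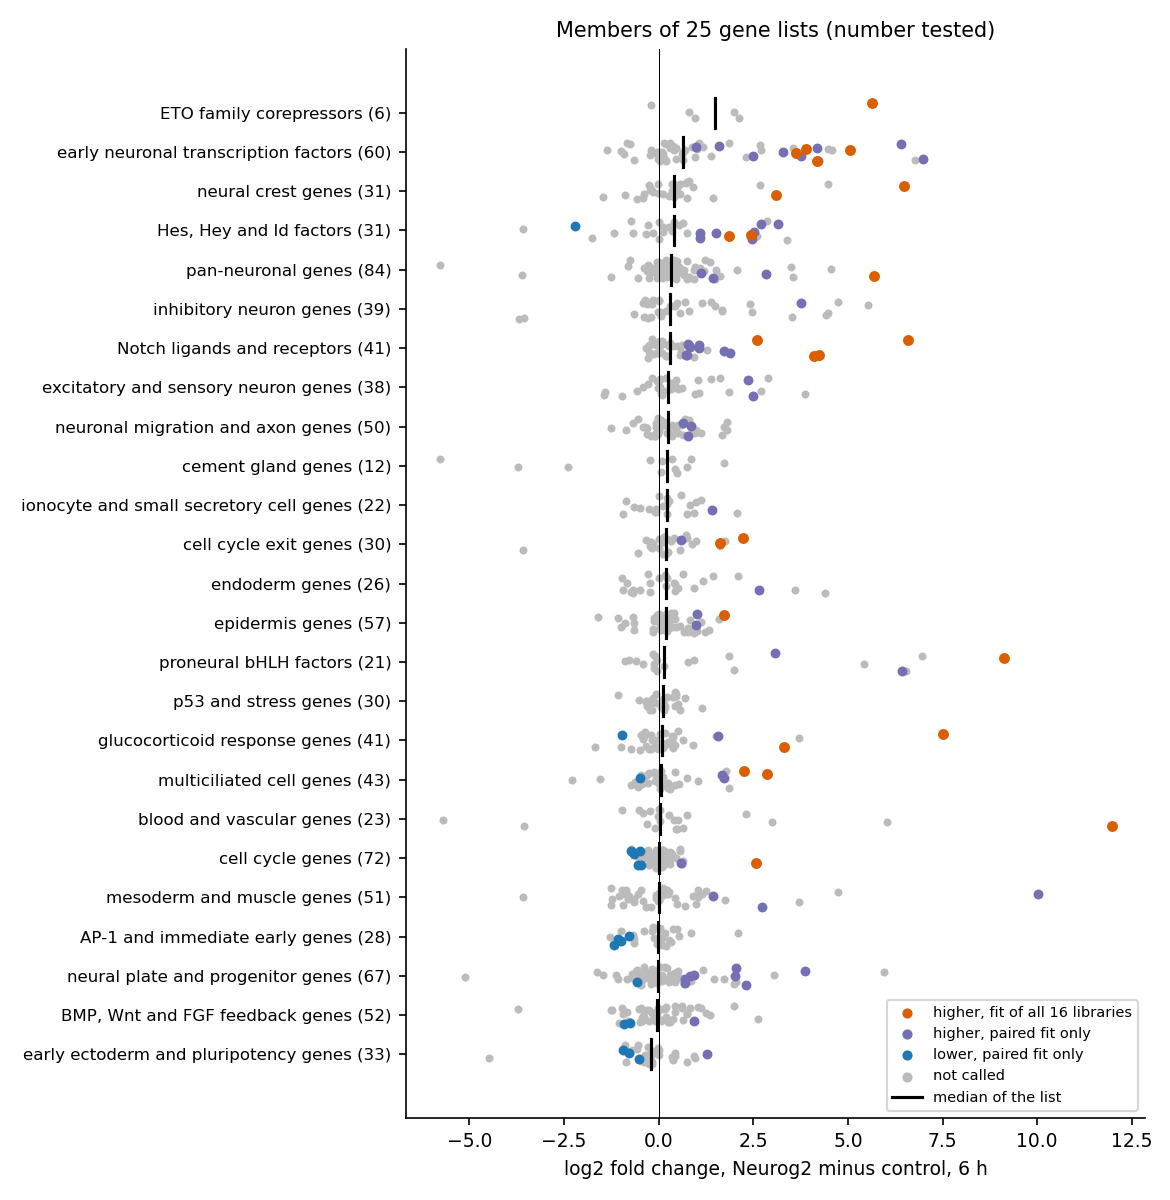
Each point is a tested member of 1 of 25 gene lists, placed by its log2 fold change at 6 h from the fit of all 16 libraries, with the list's median as a black line and the number tested in brackets. Early neuronal transcription factors and Notch genes carry called members on the right only, while AP-1 genes carry called members on the left only, all from the paired fit.

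Of 84 tested copies of pan-neuronal genes, 1 was called, and the median log2 fold change was 0.33. That is 1.19% of the list beside 0.247% of all genes, and in the paired fit the share was 5.56% beside 1.15%. The called copy was elavl3.S, which encodes an RNA-binding protein of newborn neurons, at 43.9 and 59.4 CPM with Neurog2 and 1.11 and 0.863 CPM in the controls. Its log2 fold change was 5.70 ± 0.85 SE with an adjusted p of 0.0156, and with the block within each time the adjusted p was 0.0684. Pairing gave 4 higher, the others being elavl3.L (42.8 and 35.1 CPM against 6.86 and 4.08 CPM), tubb2b.L, a neuronal tubulin, and ncam1.L, a neural adhesion molecule.

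Genes of neuron subtypes and of axons gave no call over all libraries. With 0.247% of all genes called higher, any list of the size used here would often give none. Of 50 tested copies of migration and axon genes the paired fit called 3 higher, 6% beside 1.15% of all genes. These were epha4.S, plxna2.L and sema6a.S, all by less than 1 on the log2 scale. Of 38 excitatory and sensory copies the paired fit called drgx.S and tlx3.S, 6.45% of those it tested. Of 39 inhibitory copies it called prdm13.S, 3.33% of those it tested, at 0.600 and 0.480 CPM against 0.0321 and 0.0466 CPM. Some lists share members, and tlx3.S and prdm13.S were already counted among the early neuronal transcription factors. The most abundant inhibitory copy, gad1.2.L, which encodes a GABA-making enzyme, stood at 620 and 366 CPM against 509 and 347 CPM. Those groups overlapped.

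Neural plate and progenitor genes had a median log2 fold change of -0.01 over 67 copies and no call over all libraries. In the paired fit 8 were higher, 12.7% of its members beside 1.15% of all genes, and 1 was lower, 1.59% beside 0.461%. Among the higher were irx1.L, a homeobox gene of the neural plate, at 41.1 and 27.3 CPM against 7.02 and 6.72 CPM, msi1.S, an RNA-binding protein of neural progenitors, at 27.9 and 21.8 CPM against 6.56 and 5.69 CPM, and olig2.S. The lower one was zic1.S, a neural plate zinc finger gene, at 32.4 and 62.5 CPM against 52.0 and 90.1 CPM (log2 fold change -0.62 ± 0.11 SE, adjusted p = 0.0130). The progenitor factor gene sox3.S was read at 343 and 475 CPM against 415 and 568 CPM, which overlapped, and was not called.

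Of 30 copies of cell cycle exit genes, 2 were called higher, 6.67% beside 0.247% of all genes. Both were cdknx, which encodes the Xenopus cyclin-dependent kinase inhibitor p27Xic1. The copy cdknx.L was read at 39.9 and 45.9 CPM against 9.71 and 8.70 CPM (log2 fold change 2.22 ± 0.28 SE, adjusted p = 0.00567). The copy cdknx.S was read at 77.9 and 70.6 CPM against 25.3 and 23.0 CPM (log2 fold change 1.62 ± 0.22 SE, adjusted p = 0.00789). No library with Neurog2 overlapped a control in either copy. The paired fit called 3 copies higher, 11.1% beside 1.15% of all genes, and none lower. The third was btg1.L, an antiproliferative gene, at 202 and 95.6 CPM against 130 and 68.0 CPM (log2 fold change 0.56 ± 0.12 SE, adjusted p = 0.0388).

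Of 72 cell cycle copies, 1 was called higher, 1.39% beside 0.247% of all genes, and it was cdc25b.L. Its product is a phosphatase that activates the mitotic kinase. The level was 252 and 357 CPM with Neurog2 and 33.7 and 69.3 CPM in the controls (log2 fold change 2.56 ± 0.34 SE, adjusted p = 0.00739). Its mean of 88.5 CPM per kilobase of exon was above the 65.6 of neurog2.L. The length used is that of the annotated gene, and reads of neurog2.L may come from injected mRNA of another length. These values therefore do not show which transcript was more abundant. The paired fit called 2 copies higher, 2.78% beside 1.15% of all genes. The other was cdc25b.S at 96.0 and 191 CPM against 56.2 and 135 CPM (log2 fold change 0.61 ± 0.13 SE, adjusted p = 0.0335). That fit called 5 copies lower, 6.94% beside 0.461% of all genes, with falls of 0.49 to 0.79 on the log2 scale. These were ccna1.L, ccna1.S, ccnb1.L, cdc20.L and cdc25a.L, which encode cyclins and other drivers of mitosis. The median of the list was 0, and its summed level was 12317 and 12506 CPM against 12130 and 12326 CPM.

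AP-1 and immediate early genes, which respond quickly to growth signals and to handling, were the list with calls in the lower direction only. None of 28 copies was called over all libraries. In the paired fit 4 were lower, 14.8% of its members beside 0.461% of all genes, and none higher. The fit with a block within each time called both copies of junb lower. The copy junb.L was read at 14.2 and 14.7 CPM with Neurog2 and at 32.1 and 28.3 CPM in the controls (paired log2 fold change -1.06 ± 0.20 SE, adjusted p = 0.0313). The gene fos.L was read at 8.37 and 8.86 CPM against 22.8 and 15.9 CPM (log2 fold change -1.16 ± 0.17 SE, adjusted p = 0.00166). Both controls lay above both Neurog2 libraries in each. None of 52 copies of BMP, Wnt and FGF feedback genes was called over all libraries. In that list the paired fit called spry1.S and spry2.S lower, which encode FGF antagonists, and smad6.L higher, which encodes a BMP inhibitor. The shares were 4% lower and 2% higher, beside 0.461% and 1.15% of all genes.

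Early ectoderm and pluripotency genes had the lowest median, -0.21 over 33 copies, with no call over all libraries. Of these copies, 9 had a log2 fold change above 0. The summed level was 4051 and 3846 CPM with Neurog2 and 3608 and 3871 CPM in the controls, which overlapped. The most abundant member, pou5f3.2.L, had a mean of 1218 CPM against 905 CPM and was not called in either fit. The paired fit called pou5f3.3.L, tdgf1.3.S and sall4.L lower and pou5f3.1.S higher. The shares were 9.68% lower and 3.23% higher, beside 0.461% and 1.15% of all genes. The POU factor gene pou5f3.3.L was read at 86.9 and 188 CPM against 199 and 326 CPM, and its relative pou5f3.1.S at 232 and 200 CPM against 85.0 and 94.1 CPM. The groups of pou5f3.3.L did not overlap, though the higher Neurog2 library came close to the lower control. In pou5f3.1.S both Neurog2 libraries lay well above both controls.

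The single gene called lower over all libraries was apobec2.L, which encodes a cytidine deaminase family member. It is outside the naming rule and is named because the count is 1. It had 0 counts in both Neurog2 libraries and 8 and 6 in the controls. Against a floor of 3 counts over the group it was at least 4.81-fold lower, with each read taken as independent. Since reads seem counted in pairs, this minimum is too large. With counts halved, 0 genes were called lower. The 126 lower genes of the paired fit were led by lpar6.L, which encodes a lysophosphatidic acid receptor. It was read at 7.51 and 15.7 CPM with Neurog2 and at 19.9 and 47.2 CPM in the controls (log2 fold change -1.52 ± 0.18 SE, adjusted p = 0.000823). Also among them was cyp26a1.S, which encodes an enzyme that breaks down retinoic acid, at 7.29 and 19.4 CPM against 13.3 and 39.6 CPM.

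Genes known to respond to glucocorticoids were examined because all caps carry a hormone label. Of 41 copies, 2 were called higher, 4.88% beside 0.247% of all genes, and the median log2 fold change was 0.08. The paired fit called 3 higher, 7.69% beside 1.15%, and 1 lower, 2.56% beside 0.461%. The gene tsc22d3.L, which encodes the glucocorticoid-induced leucine zipper protein, was read at 86.7 and 109 CPM with Neurog2 and at 7.33 and 12.5 CPM in the controls (log2 fold change 3.30 ± 0.30 SE, adjusted p = 0.000942). At 6 h it was also read at 92.8 and 136 CPM with Ptf1a and at 154 and 169 CPM with the mutant. The other called copy, angptl4.S, had 24 and 10 counts against 0 and 0. That is at least 11-fold higher against the floor, with each read taken as independent. The more abundant copy angptl4.L had a mean of 3.59 CPM with Neurog2 and 4.06 CPM in the controls and was not called. With both copies of angptl4 summed, the log2 fold change was -0.063. In the paired fit pdk4.L, a kinase gene of fuel metabolism, was higher (27.1 and 13.1 CPM against 9.03 and 4.48 CPM) and dusp1.S, a phosphatase gene, was lower (11.8 and 20.3 CPM against 17.2 and 45.1 CPM). Whether the control caps were exposed to hormone as the injected ones were was not tested.

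Markers of other tissues were read in the same caps. Of 57 epidermis copies 1 was called, 1.75% beside 0.247% of all genes. It was dlx6.S, a homeobox gene of the ectoderm, at 73.9 and 53.4 CPM against 22.4 and 16.1 CPM (log2 fold change 1.72 ± 0.26 SE, adjusted p = 0.0148). Summed over the list, epidermis genes stood at 8703 and 6423 CPM with Neurog2 and at 6534 and 5377 CPM in the controls, so the groups overlapped, and within both replicate numbers the Neurog2 sum was higher. The paired fit called 3 epidermis copies higher and none lower, 5.45% of its members beside 1.15% of all genes. Besides dlx6.S these were dlx5.L, at 76.9 and 37.4 CPM against 41.2 and 14.9 CPM (log2 fold change 1.08 ± 0.17 SE, adjusted p = 0.0138), and the abundant has1.S, which encodes a hyaluronan synthase. It was read at 1728 and 1412 CPM against 895 and 700.2 CPM (log2 fold change 0.97 ± 0.12 SE, adjusted p = 0.000649).

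Of 43 multiciliated cell copies, myb.L and myb.S were called, 4.65% beside 0.247% of all genes. These encode a transcription factor active in multiciliated progenitors. They were read at 5.92 and 2.81 CPM against 0.723 and 0.466 CPM, and at 5.34 and 3.17 CPM against 1.16 and 0.606 CPM. The paired fit called 4 copies of this list higher, 9.76% beside 1.15% of all genes. The others were foxn4.L and foxn4.S, forkhead genes of multiciliated cells and of neural progenitors. That fit called 1 lower, 2.44% beside 0.461% of all genes. The lower one was e2f4.S, at 30.3 and 38.1 CPM against 45.1 and 52.0 CPM (log2 fold change -0.52 ± 0.12 SE, adjusted p = 0.0482). The copies of foxj1, the forkhead regulator of motile cilia, had paired log2 fold changes of -0.58 for foxj1.L and -0.71 for foxj1.S and were not called.

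Of 31 neural crest copies, sox8.L and snai2.S were called, 6.45% beside 0.247% of all genes. The first, a SoxE factor gene, was read at 21.1 and 16.1 CPM against 2.72 and 1.61 CPM (log2 fold change 3.1 ± 0.41 SE, adjusted p = 0.00738). Its copy sox8.S had a mean of 2.34 CPM with Neurog2 and 2.73 CPM in the controls. With both copies of sox8 summed, the log2 fold change was 2.09 and the gene was not called. For snai2.S, which encodes the repressor Slug, the counts were 10 and 6 against 0 and 0. Its adjusted p was 0.120 in the paired fit. Ionocyte, cement gland, mesoderm, endoderm and p53 and stress lists gave no call over all libraries. With 0.247% of all genes called higher, lists of their size would often give none. The paired fit called foxa1.S of the ionocyte list higher, at 4.15 and 4.51 CPM against 1.69 and 1.54 CPM, and gata6.L of the endoderm list, at 0.360 and 0.960 CPM against 0.112 and 0.0933 CPM. In either list that is 4.55% beside 1.15% of all genes. The paired fit called none of the cement gland copies and none of the 30 p53 and stress copies, whose median log2 fold change was 0.10. Summed mesoderm genes stood at 97.6 and 143 CPM with Neurog2 and 170 and 178 CPM in the controls, and summed endoderm genes at 66.0 and 68.8 CPM against 27.7 and 41.8 CPM. Single abundant genes that were not called in either fit carry much of these gaps. The endoderm gene a2m.S was at 53.6 and 42.2 CPM against 14.7 and 20.5 CPM, and without it the endoderm sums were 12.5 and 26.6 CPM against 12.95 and 21.3 CPM, which overlapped. The T-box gene copies vegt.L, at 21.7 and 41.4 CPM against 47.3 and 52.5 CPM, and vegt.S, at 29.1 and 38 CPM against 64.7 and 52.0 CPM, belong to the mesoderm list. Without both, the mesoderm sums were 46.8 and 63.6 CPM against 58.45 and 74 CPM, which overlapped but were lower with Neurog2 within both replicate numbers. Of the 51 tested mesoderm copies the paired fit called 3 higher, 7.14% of those it tested. Among them tcf15.S led with 88 and 91 counts against 0 and 0. The myogenic genes myf5.S, myf6.L, myf6.S and myog.S had 0 counts in all 4 libraries. The part of these tissues in the other results was not tested.

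One globin gene stood apart among blood genes. The gene hbg1.L lies on chromosome 9_10L, from 85943288 to 85948112. It had 414 and 302 counts with Neurog2 and 0 and 0 in the controls. Whether reads of the injected mRNA are among these counts was not tested. In the same 4 libraries its copy hbg1.S and the globin genes hba1.L, hba1.S, hbd.L, hbd.S and hbg2.L had 0 counts, as had alas2.1.L and gata1.S, which belong to red blood cell formation. The gene gata1.L had 2 and 0 counts against 4 and 0. No other member of the 23 tested blood and vascular copies was called, so the share is 4.35% beside 0.247% of all genes. In the paired fit hbg1.L was again the only call, 5.56% beside 1.15%.

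Genes outside the lists filled much of the remainder, since 24 of the 75 belong to a list. Both copies of zc3h12c, which encodes a zinc finger RNase of the Regnase family, were called. The copy zc3h12c.S was read at 22.1 and 21.2 CPM with Neurog2 and 0.161 and 0.373 CPM in the controls (log2 fold change 6.38 ± 0.73 SE, adjusted p = 0.00268). The protocadherin gene pcdh18.L, which encodes a cell adhesion protein, was read at 31.7 and 42.5 CPM against 1.59 and 1.26 CPM (log2 fold change 4.70 ± 0.40 SE, adjusted p = 0.000776). Its copy pcdh18.S was read at 20.9 and 28.8 CPM against 1.64 and 1.87 CPM (log2 fold change 3.82 ± 0.38 SE). All of these groups lay far apart.

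The gene tiparp.L, which encodes an ADP-ribosyltransferase, was read at 22.4 and 33.5 CPM against 3.46 and 2.80 CPM (log2 fold change 3.16 ± 0.31 SE, adjusted p = 0.000942). The gene efs.L, which encodes an adaptor that binds Src kinases, was read at 23.5 and 30.3 CPM against 5.62 and 4.90 CPM (log2 fold change 2.35 ± 0.24 SE, adjusted p = 0.000942). The gene dlk2.S, which encodes a Delta-like protein without the usual ligand domain, was read at 12.9 and 7.40 CPM against 0.803 and 0.560 CPM (log2 fold change 3.89 ± 0.44 SE, adjusted p = 0.00244). The annotated span of dlk2.S overlaps an unnamed gene on the same strand, and that of nhsl2.L likewise. Whether their exons overlap was not tested, so the reads of both are uncertain.

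Other named genes came from low levels. The gene b4galnt1.S, which encodes an enzyme of ganglioside synthesis, had 143 and 96 counts with Neurog2 and 0 and 2 in the controls. The pooled ratio was 116 with an exact 95% interval of 31.7 to 963, which treats each read as independent. The adjusted p rose from 0.0135 to 0.0695 with the block within each time. With both copies of b4galnt1 summed, the log2 fold change was 0.27 and the gene was not called. For c8orf46.L the counts were 174 and 312 against 0 and 2, and for prr15l.S they were 192 and 122 against 6 and 0. The gene lrrn1-like.1.S, named for a leucine-rich repeat protein of neurons, was read at 15.2 and 23.6 CPM against 0.354 and 0.420 CPM (log2 fold change 5.65 ± 0.87 SE, adjusted p = 0.0187, and 0.0631 with that block). The gene hepacam2.L, of the immunoglobulin family, was read at 2.34 and 2.57 CPM against 0.161 and 0.163 CPM (log2 fold change 3.91 ± 0.52 SE).

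The 75 genes were then looked up in the separate libraries of 25 h. At that time 15 of them, 20%, were called higher with Neurog2 and none lower, where 2.98% of all tested genes were called higher. Their median log2 fold change at 25 h was 0.46, with 53 above 0, beside -0.02 over all genes. The fit used the same estimate of a gene's spread at both times, and the injected neurog2.L is among the 75. The share called at 25 h is therefore not independent of the calls at 6 h. Of the 315 genes higher in the paired fit at 6 h, 60 were called higher at 25 h. Of its 126 lower genes, none was called lower and 2 were called higher at 25 h. Over all tested genes 0.105% were called lower and 2.98% higher then. With shares this low, the counts do not show whether the lower genes stay lower.

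Genes higher at both times included both copies of dll1 and of myt1, elavl3.S, insm1.S, zbtb18.S, b4galnt1.S, zc3h12c.S and faxc.L. For elavl3.S the level at 25 h was 40.7 and 175 CPM with Neurog2 and 0.808 and 1.31 CPM in the controls (log2 fold change 6.71 ± 0.90 SE). The gene myt1.S was read at 62.8 and 122 CPM against 14.8 and 15.1 CPM (log2 fold change 2.62 ± 0.47 SE). The injected neurog2.L had come down to 12.2 and 9.47 CPM against 0.0376 and 0.319 CPM. No difference between the times was called for its effect (-2.87 ± 0.83 SE, adjusted p = 0.202).

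Some genes that only the paired fit called at 6 h were called over all libraries at 25 h. The NeuroD gene neurod4.L was read at 23.1 and 65.1 CPM with Neurog2 at 25 h and at 0 and 0.239 CPM in the controls (adjusted p = 0.0163). The copy onecut1.2.L was read at 13.4 and 61.1 CPM against 0.0752 and 0.319 CPM.

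Of the 75 genes, 27 had a smaller effect at 25 h than at 6 h by the test of the difference, and none had a larger one. Over all genes, 0.0889% had a lower effect at 25 h and 0.207% a higher one. The 75 were chosen by their 6 h effect, which is part of that difference, so nothing is read from this count. The gene tsc22d3.L was at 15.1 and 10.9 CPM with Neurog2 at 25 h and at 19.4 and 17.5 CPM in the controls, with the controls higher, and was not called there. The gene pcdh18.L was called at both times, but its effect was smaller at 25 h (difference -3.02 ± 0.52 SE, adjusted p = 0.0373).

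**Figure D4:**
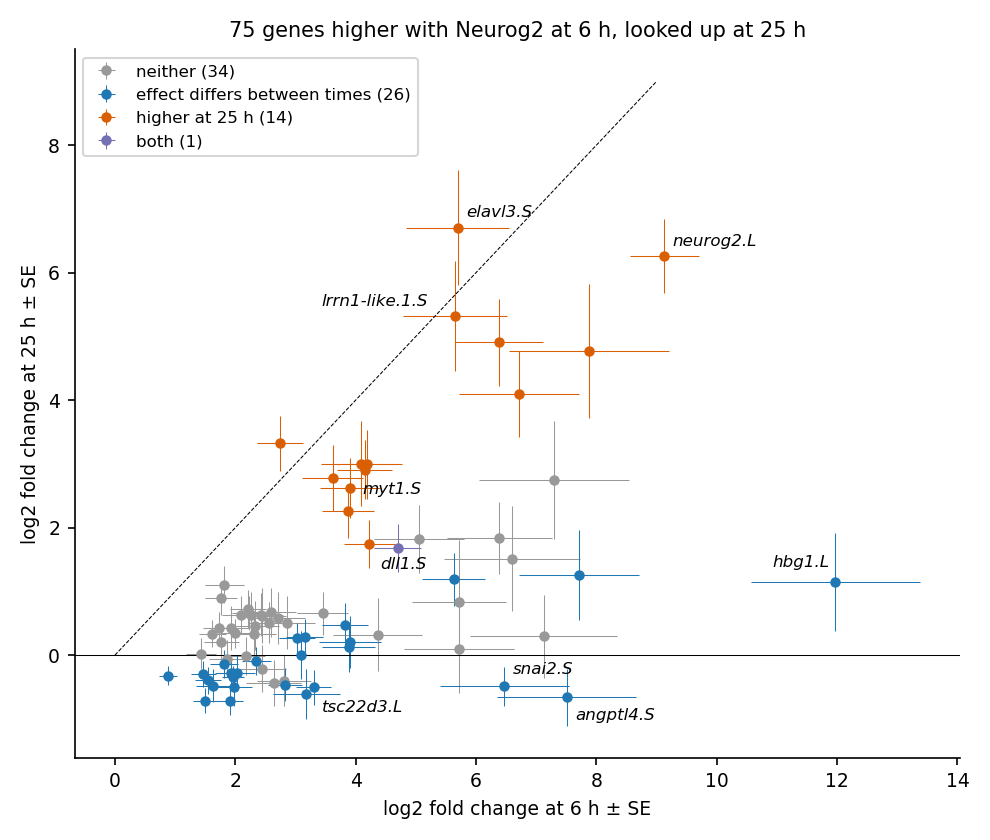
The log2 fold change of Neurog2 against control at 25 h (y axis) is plotted against that at 6 h (x axis) for the 75 genes called higher at 6 h, each with its SE, and the dashed line marks equal effects. The 15 genes called higher at 25 h (orange and purple) lie above 1.5 on the y axis, and tsc22d3.L, snai2.S and angptl4.S lie below 0.

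Finally the Neurog2 caps were set against the other injected caps of 6 h by direct tests. Against Ptf1a, 4 genes were higher with Neurog2, 0.0132% of those tested, and 38 were lower, 0.125%. Against the mutant, 2 were higher, 0.00658%, and 2 were lower, also 0.00658%. All 4 genes higher than with Ptf1a are among the 75, and these were neurog2.L, hbg1.L, hes2.L and arhgef3.2.S. The higher ones against the mutant were neurog2.L and hbg1.L. These counts include the genes of the injected factors. Among the lower genes of both contrasts was ptf1a.L, at 0.510 and 0.0960 CPM with Neurog2. It was read at 184 and 181 CPM with Ptf1a and at 152 and 146 CPM with the mutant.

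The gene hbg1.L had 0 and 2 counts with Ptf1a and 2 and 0 with the mutant, beside 414 and 302 with Neurog2. The gene hes2.L was read at 1.61 and 2.05 CPM with Ptf1a and at 4.50 and 3.01 CPM with the mutant (log2 difference of Neurog2 minus Ptf1a 2.43 ± 0.39 SE, adjusted p = 0.0379). The gene arhgef3.2.S was read at 6.61 and 7.30 CPM with Neurog2 and at 2.07 and 2.75 CPM with Ptf1a (log2 difference 1.53 ± 0.22 SE, adjusted p = 0.0202). In both genes the Neurog2 libraries lay above those of all other groups.

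Of the 75 genes, 3 were lower with Neurog2 than with Ptf1a. These were fam101b.L, at 1.11 and 1.44 CPM against 7.57 and 13.9 CPM, the Wnt receptor gene fzd10.L, at 11.5 and 12.3 CPM against 32.2 and 53 CPM, and the small GTPase gene arl4a.S, at 60.8 and 67.0 CPM against 251 and 343 CPM. The gene nhsl2.L was lower than with the mutant (1.71 and 2.69 CPM against 8.95 and 9.29 CPM, log2 difference -2.06 ± 0.26 SE, adjusted p = 0.0309). The lower genes against Ptf1a outside the 75 included prdm13.S, at 57.3 and 95.5 CPM with Ptf1a, and hes8.L and hes8.S.

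For most of the Delta and neuronal genes no difference between the injected groups was called, which does not show that they act alike. The difference of Neurog2 minus Ptf1a was 0.51 ± 0.36 SE on the log2 scale for dll1.S, -1.06 ± 0.50 SE for myt1.L and 0.97 ± 0.69 SE for elavl3.S. Against the mutant it was -0.28 ± 0.36 SE for dll1.S and -0.34 ± 0.49 SE for myt1.L. For cbfa2t2.S the level was 103 and 194 CPM with Ptf1a and 132 and 88.0 CPM with the mutant, beside 29.2 and 47.5 CPM with Neurog2, with no overlap (log2 difference of Neurog2 minus Ptf1a -1.95 ± 0.42 SE, adjusted p = 0.180).

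**Figure D5:**
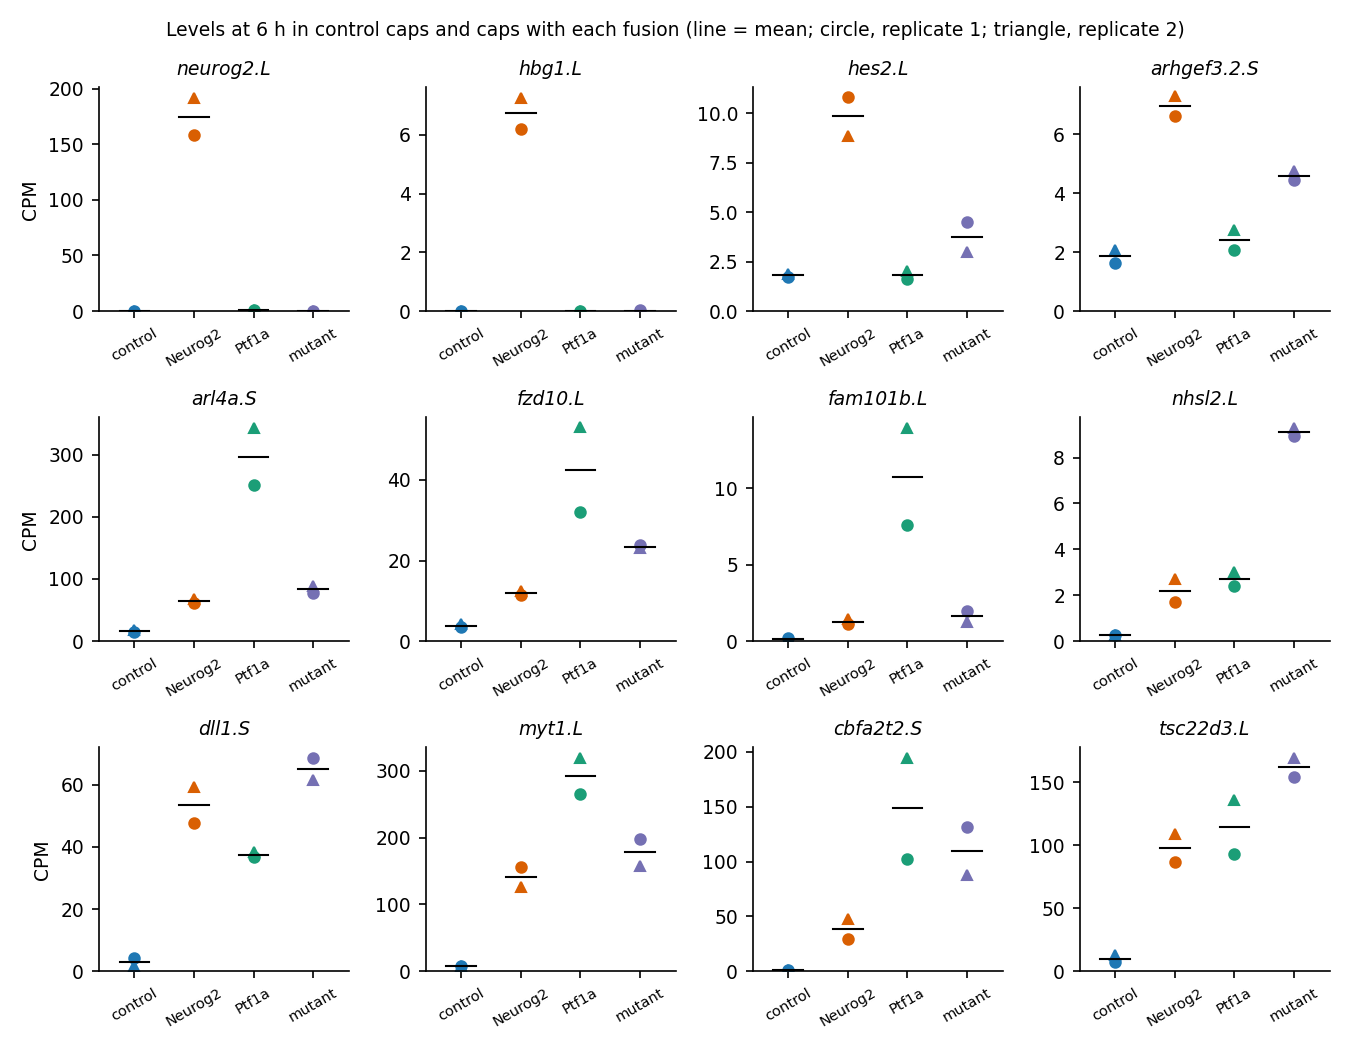
Levels of 12 genes at 6 h in TMM-scaled CPM on a linear axis from 0, with circles for replicate 1, triangles for replicate 2 and a line for the mean of the 2 libraries of a group. The genes neurog2.L and hbg1.L are high with Neurog2 alone, arl4a.S, fzd10.L and fam101b.L are highest with Ptf1a, nhsl2.L is highest with the mutant, and tsc22d3.L is high with all 3 fusions.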

How the data were processed

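Total RNA of the caps was made into libraries with standard Illumina protocols, per the labels. The authors deposited raw counts per gene, 1 table per library. The submitters' processing notes name CASAVA 1.8, STAR 2.5, featureCounts and DESeq2 1.8. Strandedness and how multimapping reads were handled are not given in the sources used here, so reads of a gene and an antisense partner cannot be told apart. Coordinates come from annotation records of build 9.1, and 41310 of 45038 genes matched 1 record.

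From the deposited counts, TMM factors and filterByExpr left 30384 genes. A quasi-likelihood model (edgeR 4.0.16, R 4.3.3, glmQLFit, robust) with a mean for each of 8 groups took in all 16 libraries (8 residual degrees of freedom). For each contrast p was Benjamini-Hochberg adjusted over every gene tested. The test was run on simulated data first. Library totals ranged from 31436437 to 228346016 counts. Of low counts (1 to 50), 77.1 to 83.8% were even, so most reads seem counted in pairs. Counts are reads without molecular identifiers. Intervals (95%, exact) and floors (3 counts over the group) treat each read as independent and cover at most counting error. Where reads are counted in pairs, the intervals are too narrow and the minimum folds too large. A fitted fold change from 0 counts depends on a prior count (0.125) and is no bound. Differences within a pair use a prior count of 2.

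Members of groups come from the titles. The labels do not say that replicates are separate batches of embryos, so a p-value reflects only the spread among these libraries. Replicate 1 minus replicate 2 differences correlated at 0.617 to 0.697 between the groups of 6 h across genes, at 0.201 to 0.37 at 25 h and at 0.125 to 0.239 between the times, and the labels do not say what a shared number marks. The numbers were therefore also fitted as a block, over all times, within each time, and in the 8 libraries of 6 h.

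The 25 gene lists and the rule for named genes were chosen with earlier results of these data known. The rule named the copies of neurog2 and ptf1a, the 14 genes of largest rise and up to 6 of largest fall among called genes with a symbol, a mean log2 CPM above 0 and no overlap, up to 3 called members of each list (or its most abundant member as a value), and genes called also without each of the 4 libraries. It gave 48 genes, of which 34 were called. Genes named from the paired fit, from the lower genes, from the direct contrasts, and zbtb18.S, faxc.L, insm1.S, numbl.L, zc3h12c.L, apobec2.L, vegt.L, foxj1.L and foxj1.S, were chosen after their values were seen. Alternatives tried were DESeq2 1.42.0 (Wald test and size factors), no filter on low counts, smaller sets of libraries, leaving out each library, L and S copies summed and, added after seeing the data, counts halved. No sequences are printed.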

Additional observations from a re-analysis of the deposited data

Results flagged for a closer look

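For 13 named genes the effect of Neurog2 differed between 25 h and 6 h by an edgeR test of the difference itself, and in each case the log2 fold change was smaller at 25 h. The genes were named by their effect at 6 h, which enters the difference.

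The difference of log2 fold changes, 25 h minus 6 h, was -10.82 for hbg1.L, -8.17 for angptl4.S and -6.96 for snai2.S. These 3 genes had 0 counts in the controls of 6 h, so their values depend on the prior count. The difference was -4.44 for the corepressor gene cbfa2t2.S and -3.81 for tsc22d3.L. For dlk2.S it was -3.76 and for hepacam2.L it was -3.70. The protocadherin copies pcdh18.S and pcdh18.L gave -3.35 and -3.02. The crest factor gene sox8.L gave -3.1, tiparp.L gave -2.87, nhsl2.L gave -2.76 and efs.L gave -2.44. The adjusted p of these 13 differences lay between 0.0116 and 0.0412. At 25 h the log2 fold change was below 0 for angptl4.S, snai2.S, tsc22d3.L and efs.L, and none of these 4 was called at that time.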

How the results depend on the processing

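The counts of genes higher and lower at 6 h, 75 and 1, moved with the pairing, the tool and the libraries used. With the block over all times, 103 genes were higher and 1 lower, with the block within each time 149 and 7, in the 8 libraries of 6 h with the block 315 and 126, and in the 4 libraries alone with the block 648 and 398. Of the 75 genes, 69 were called with the block within each time and 64 in the 8 paired libraries. Without a block, the 8 libraries of 6 h gave 24 higher and 0 lower, and the 4 libraries alone gave 2 and 0. With the block within each time, 28 of its own 149 genes higher at 6 h were called higher at 25 h, in place of 15 of the 75. Against Ptf1a the block called 76 genes, and 174 within each time, in place of 42, and against the mutant 12 and 39, in place of 4.

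DESeq2's Wald test called 195 genes higher and 8 lower. Halved counts gave 73 higher and 0 lower, and DESeq2 size factors gave 74 and 1. Without a filter on low counts 74 were higher, and 65 genes were called against Ptf1a and 12 against the mutant. Leaving out 1 library gave 16 to 50 higher and 0 lower, 4 to 14 of the higher genes called at 25 h (4 without control replicate 1 and 5 without control replicate 2), 9 to 44 called against Ptf1a and 2 to 3 against the mutant (9 and 2 without either Neurog2 library).

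Signs turned for a few named genes, most of which were not called at 6 h. With L and S copies summed, neurog2.S took the rise of its partner (6.88) and the called angptl4.S was at -0.063. Of 31 called named genes with a value in that setting, 19 stayed called, 11 lost the call and 1 turned. Those that lost it in edgeR's quasi-likelihood test included cbfa2t2.S (adjusted p = 0.0627), elavl3.S (0.0891), id2.L (0.148), cdc25b.L (0.270) and dlc.S (0.975). Leaving out 1 library gave ptf1a.L -0.83 to 1.56, gad1.2.L -0.23 to 0.54, ier5.S -0.069 to 0.15, pfkfb3.L -0.16 to 0.045 and tfap2a.L -0.21 to 0.92. For the difference between the times it gave ptf1a.L -1.92 to 0.48, lrrn1-like.1.S -0.61 to 0.015, tfap2a.L -0.94 to 0.18 and a2m.S -0.0041 to 0.47. The cause was not tested. Depth limits the genes with few counts, such as snai2.S with 10 and 6.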

Other observations

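Among the 75 genes called higher at 6 h, 3 pairs of neighbours lay within 100 kb of each other on the annotation of build 9.1. The locus Xelaev18028850m.g lies 392 bases from insm1.S on chromosome 5S, on the opposite strand. It was read at 11.9 and 18.3 CPM with Neurog2 and at 0.723 and 0.979 CPM in the controls, and insm1.S at 18.2 and 30.6 CPM against 1.75 and 2.22 CPM. The locus Xelaev18005924m.g lies 399 bases beyond rasgef1b.L on chromosome 1L, on the same strand. It was read at 3.34 and 3.17 CPM against 0.546 and 0.443 CPM, and rasgef1b.L, which encodes a Ras exchange factor, at 8.05 and 7.06 CPM against 1.41 and 1.38 CPM. Whether rasgef1b.L and the locus beside it are parts of one transcript was not tested. The insm1.S pair is annotated on opposite strands, which parts of one transcript would not be. The genes tsc22d3.L and nhsl2.L lie 91.6 kb apart on chromosome 8L, on the same strand.

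Several abundant genes with roles outside the neuronal lists were also higher at 6 h and were chosen after their values were seen. The gene mxi1.L, which encodes a bHLH-zipper antagonist of Myc, was read at 160 and 167 CPM against 29.2 and 35.8 CPM (log2 fold change 2.33 ± 0.39 SE, adjusted p = 0.0305 in edgeR's quasi-likelihood test). The kinase gene pim1.L was read at 220 and 258 CPM against 76.9 and 101 CPM (log2 fold change 1.43 ± 0.25 SE). The small GTPase gene rhebl1.L was read at 323 and 230 CPM against 102 and 93.3 CPM (log2 fold change 1.5 ± 0.20 SE), and rap2b.L at 183 and 115 CPM against 39.9 and 34.4 CPM (log2 fold change 2.0 ± 0.24 SE). In each of these genes both Neurog2 libraries lay above both controls. The same held for all 75 called genes and for 13.4% of all tested genes, so it adds nothing to the call.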
